A study of Mus musculus with 12 samples.

Results

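The genes that write, maintain or remove DNA methylation were followed across leukaemia cells and B-lineage progenitors of the mouse. They were the DNA methyltransferases Dnmt1 (ENSMUSG00000004099), Dnmt3a (ENSMUSG00000020661) and Dnmt3b (ENSMUSG00000027478), the maintenance partner Uhrf1 (ENSMUSG00000001228), and the dioxygenases Tet1 (ENSMUSG00000047146), Tet2 (ENSMUSG00000040943) and Tet3 (ENSMUSG00000034832). The 7 were chosen by name, all 7 matched a row among the 21885 genes of the deposited table, and all 7 passed the filter on low values. RNA was sequenced in 12 libraries, 4 for each of 3 populations. P80R B-ALL denotes B-cell acute lymphoblastic leukaemia cells sorted for GFP that carry the PAX5 P80R mutant, 1 library from each of the primary recipients 1300, 1301, 1302 and 1308. The Pax5 KO group held cells purified at the CLP/pre-pro-B stage (CLP, common lymphoid progenitor) from fetal livers of genotype Pax5-/-, and the Pax5 WT group held pro-B/pre-BI cells purified from Pax5+/+ fetal livers. Genotype and sorted stage changed together between the fetal liver groups and cannot be told apart. P80R B-ALL differed from both fetal liver groups in disease, Pax5 genotype, source of the cells and sorting at once. These cannot be told apart either. Whether the recipients shared donor cells was not established here. The sources used here do not state how the mutant was expressed, the age of the animals, or how separate the 4 fetal liver samples of a group were, so p-values measure the spread between these samples. No batch is labelled.

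DNA methylation is copied after each round of DNA replication by Dnmt1, which Uhrf1 brings to half-methylated sites, and is set at new sites by Dnmt3a and Dnmt3b. The Tet enzymes oxidise methylated cytosine with oxygen, iron and alpha-ketoglutarate, and the oxidised bases are lost at later divisions or cut out by base excision repair. In blood cells Dnmt3a and Tet2 are known for their mutations in myeloid disease, Dnmt3b is known as an enzyme of early progenitors, and Pax5 is the transcription factor that commits progenitors to the B lineage.

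Values are scaled read counts, the authors' division of each library's reads by 1 factor. Depth was 24914250 to 29386256 reads per library in P80R B-ALL, 36871775 to 43513852 in Pax5 KO and 33191950 to 39465256 in Pax5 WT. The leukaemia libraries were far less alike than the others, with a spread (SD of log2 values, median over genes) of 0.47 in P80R B-ALL, 0.11 in Pax5 KO and 0.16 in Pax5 WT. Pax5 itself had scaled counts of 255 to 1316 in P80R B-ALL, 230 to 267 in Pax5 KO and 6194 to 7315 in Pax5 WT. Recipients 1300 and 1308 stood apart: 10 erythroid markers took 1.28% and 2.90% of their reads, against 0.126% to 0.134% in recipients 1301 and 1302 and 0.0583% to 0.0786% in the fetal liver libraries. The 12 granulocyte and monocyte markers summed to 169057 and 279732 in recipients 1300 and 1308 and to 13836 and 5030.4 in recipients 1301 and 1302, against 9497 to 10302 in Pax5 KO and 573 to 821 in Pax5 WT, and 6 plasmacytoid dendritic markers summed to 303876 in recipient 1308 alone and to at most 20321 in any other library. None of the 10 erythroid markers was at 0 in any leukaemia library, including recipients 1301 and 1302. In the fetal liver libraries 4 to 6 of them were at 0 in Pax5 KO and 5 to 6 in Pax5 WT. Leaving out recipients 1300 and 1308 thus does not remove all erythroid reads. Other markers were raised in all 4 recipients: 10 macrophage markers summed to 6746 to 35609.8 in P80R B-ALL, 2073 to 2342 in Pax5 KO and 32 to 82.2 in Pax5 WT, and 8 T lineage markers to 6735 to 14708 in P80R B-ALL, 2686 to 2742 in Pax5 KO and 432 to 566 in Pax5 WT. Recipients 1301 and 1302, at 7376 and 6746 for the macrophage and 14708 and 6735 for the T lineage markers, were thus also above every fetal liver library, and their part in the results was not tested. Hepatocyte markers were near 0 throughout, with 4 or 5 of the 6 at 0 in every library. Long genes were also read less in some libraries. The median of 1179 genes with at least 10000 bases of exon less that of 2591 genes with 1500 to 3000 bases, each gene centred on its log2 mean over the 12 libraries, was -0.28, -0.72, -0.00 and -0.52 in recipients 1300, 1301, 1302 and 1308, 0.24 to 0.35 in Pax5 KO, and 0.29, 0.14, 0.15 and -0.26 in Pax5 WT libraries 1 to 4. Results are therefore also given without recipients 1300 and 1308 and with the trend on exon length removed, both chosen after the data were seen.

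The genes separated into a maintenance pair that was lower in leukaemia, a de novo enzyme that was high in Pax5 KO alone, and Tet genes that were higher in Pax5 KO relative to Pax5 WT. Between P80R B-ALL and Pax5 WT, 2 of the 7 genes, Dnmt1 and Uhrf1, passed the adjusted p threshold of 0.05, both lower, where 40.6% of the 11615 genes tested passed it, 20.8% higher and 19.8% lower. Between P80R B-ALL and Pax5 KO, 3 of the 7 passed, Dnmt3b, Dnmt1 and Uhrf1, all lower, where 39% of 11914 genes passed, 17.9% higher and 21.2% lower. Between Pax5 KO and Pax5 WT, 6 of the 7 passed, where 66.4% of 11576 genes passed: Dnmt3b, Tet1, Tet2 and Tet3 were higher (36.1% of all genes were) and Dnmt1 and Uhrf1 were lower (30.3% were). The counts are near those shares of all genes, so the results lie in the size and pattern of single genes. Each pair of comparisons shares 1 group of libraries, so the 3 are not independent. In P80R B-ALL against Pax5 KO, 45.7% of the genes called were higher with the authors' scaling, 35.5% with CPM scaling, 57.9% with edgeR and 57.2% with DESeq2, and Dnmt3b, Dnmt1 and Uhrf1 were called lower in all 4.

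**Figure D1:**
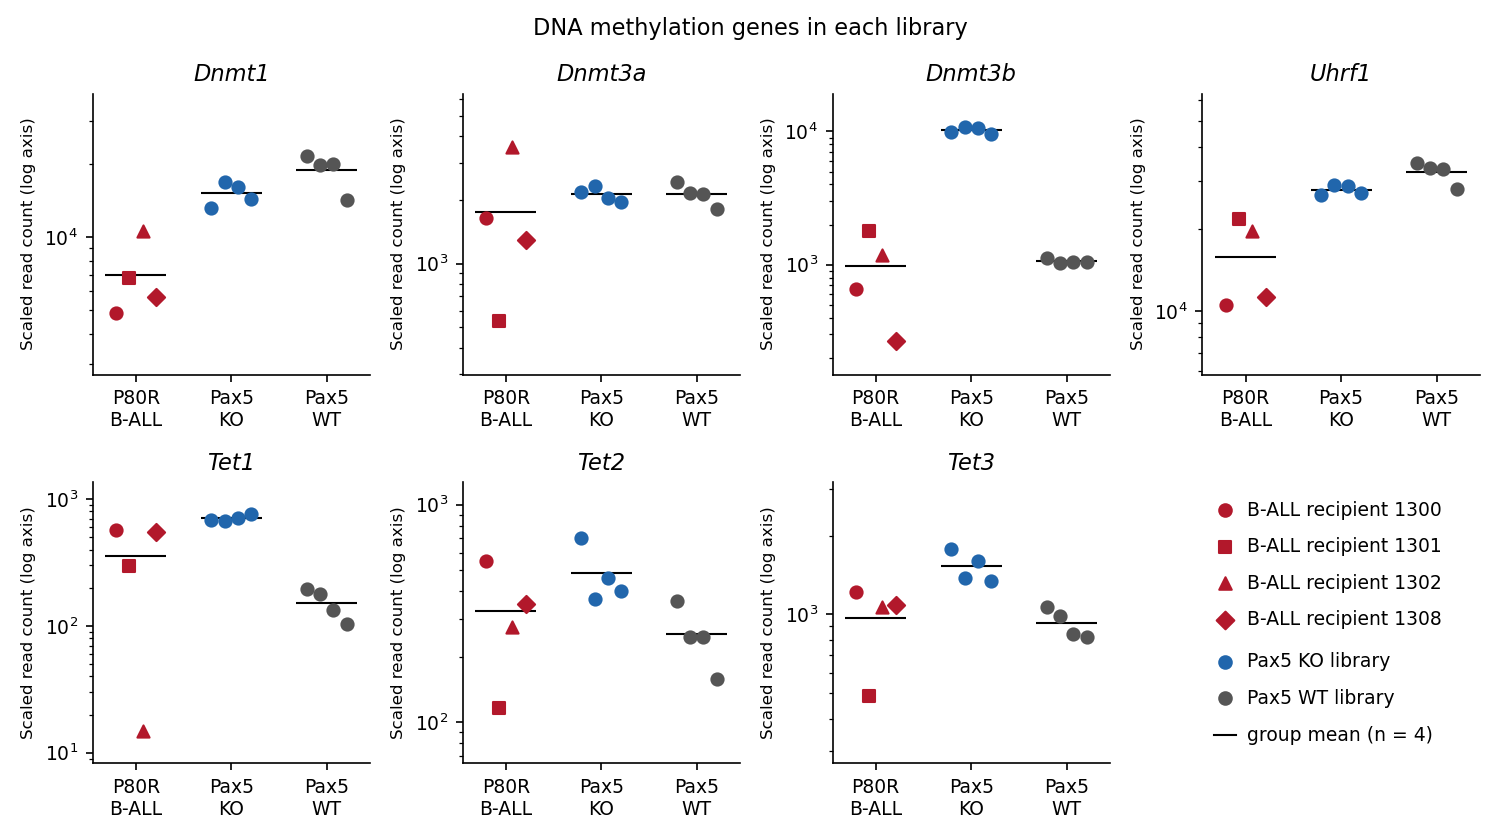
Scaled read count (log axis) of each of the 7 genes in the 4 P80R B-ALL libraries (red, 1 symbol per recipient), the 4 Pax5 KO libraries (blue) and the 4 Pax5 WT libraries (grey), with group means as lines. Dnmt3b was between 9653 and 10709 in Pax5 KO and at most 1803 elsewhere, and Tet1 in recipient 1302 was at 14.9.

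**Figure D2:**
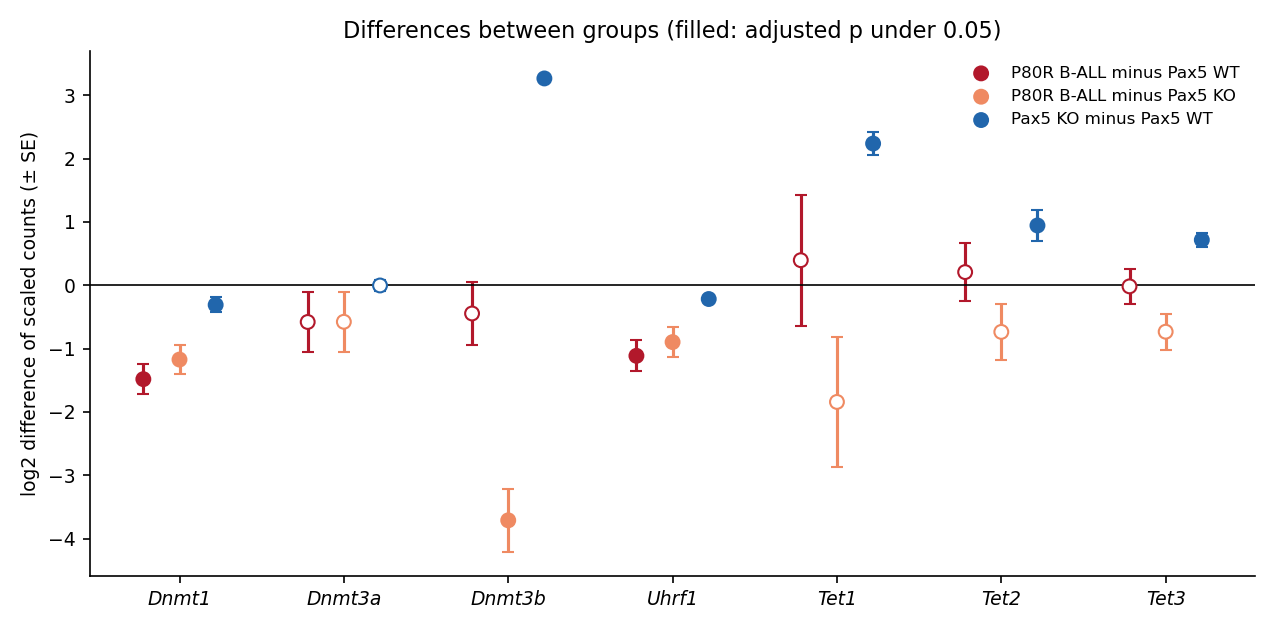
Log2 difference between group means of log2(scaled count + 1), with its standard error (bars), for the 3 comparisons of each gene, filled where the adjusted p of limma was under 0.05. For each gene the error bars of both comparisons with P80R B-ALL are longer than that of Pax5 KO against Pax5 WT, and the largest differences are those of Dnmt3b, at -3.71 for P80R B-ALL minus Pax5 KO and 3.27 for Pax5 KO minus Pax5 WT.

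The maintenance pair was lowest in leukaemia. Dnmt1, the enzyme that copies methylation onto the new strand, had 4891, 6756, 10546 and 5693 scaled counts in recipients 1300, 1301, 1302 and 1308, against 13147.5, 16888, 16057 and 14394 in Pax5 KO libraries 1 to 4 and 21614, 19743, 19954 and 14216 in Pax5 WT libraries 1 to 4. Every leukaemia library was below every fetal liver library, the highest being recipient 1302. In P80R B-ALL Dnmt1 averaged 6972 ± 2502, against 18882 ± 3221 in Pax5 WT (SD, n = 4 each), a log2 difference of -1.48 ± 0.24 (SE, adjusted p = 0.00125) or 2.79-fold lower. Against the 15122 ± 1676 of Pax5 KO the difference was -1.17 ± 0.23 (SE, adjusted p = 0.00465). In bulk RNA, fewer cells of a type and less RNA per cell cannot be told apart.

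Uhrf1, which recognises half-methylated DNA and recruits Dnmt1, had 10483, 21724, 19608 and 11223 scaled counts in recipients 1300, 1301, 1302 and 1308, against 26685, 29006, 28722.5 and 27118 in Pax5 KO libraries 1 to 4 and 35079.6, 33691, 33208 and 28043 in Pax5 WT libraries 1 to 4. Recipients 1300 and 1308 were lowest, and no leukaemia library reached a fetal liver library. Uhrf1 was 2.16-fold lower in P80R B-ALL than in Pax5 WT (-1.11 on the log2 scale, SE 0.24, adjusted p = 0.00585) and 1.86-fold lower than in Pax5 KO (-0.90 on the log2 scale, SE 0.24, adjusted p = 0.0176). Between P80R B-ALL and Pax5 WT 20.2% of all genes lay below in every library and 21.3% above, and between P80R B-ALL and Pax5 KO, where 5 of the 7 (Dnmt1, Uhrf1, Dnmt3b, Tet1 and Tet3) lay below, 23.3% did and 19.7% lay above. The recipients with the most erythroid, granulocyte and monocyte marker reads were the lowest for Uhrf1, and 1300 and 1308 were also the lowest for Dnmt1. The part of those markers in the spread among recipients was not tested. Without recipients 1300 and 1308 the differences from Pax5 WT were smaller and still passed, at -1.14 for Dnmt1 (adjusted p = 0.00763) and -0.65 for Uhrf1 (adjusted p = 0.00621), and from Pax5 KO they were -0.83 (adjusted p = 0.0122) and -0.43 (adjusted p = 0.00994). With the length trend removed Dnmt1 differed by -1.29 from Pax5 WT (adjusted p = 0.00106) and Uhrf1 by -1.04 (adjusted p = 0.00677).

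Pax5 KO and Pax5 WT were much closer in both genes. Dnmt1 was 1.24-fold lower in Pax5 KO than in Pax5 WT (-0.31 on the log2 scale, SE 0.12, adjusted p = 0.0364) and Uhrf1 1.16-fold lower (-0.22 on the log2 scale, SE 0.07, adjusted p = 0.0154). The groups overlapped in both genes through Pax5 WT library 4, which had the lowest value of its group in each and also the lowest long-gene reading. For Dnmt1 this small difference no longer passed when Pax5 KO library 1 or 4 or Pax5 WT library 1, 2 or 3 was left out (adjusted p = 0.117, 0.0834, 0.103, 0.0879 and 0.0924). With CPM scaling neither gene passed (adjusted p = 0.136 for Dnmt1 and 0.134 for Uhrf1).

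The promoters of all 7 genes were searched for the core words bound by E2F factors, the regulators of the G1 to S transition. The words searched, on both strands, were TTTCGCGC, TTTCCCGC, TTTGGCGC and TTTGCCGC, in the 250 bases before each annotated start (RefSeq, GRCm38.p6, an older build than the one the reads were aligned to). The 7 genes matched 12 windows, and a word was found in 1 of the 3 windows of Dnmt1 and 1 of the 2 windows of Uhrf1, the same word in both. These 30 bases are shown because they are the matches, with the word in capitals, each read 5′ to 3′ on the gene's own strand: Dnmt1 on the minus strand at chr9:20952824-20952853, with the word starting 219 bases before the start, and Uhrf1 on the plus strand at chr17:56304117-56304146, starting 185 bases before it. The Dnmt1 word is on the opposite strand and so reads in reverse complement.
Dnmt1: ggtttccgcgcGCGCGAAAaagccggggtc
Uhrf1: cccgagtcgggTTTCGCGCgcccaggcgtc
Of 32851 windows of the same length in the annotation, 1.86% held 1 of these words. The Dnmt1 window held 26 CpG and the Uhrf1 window 30, against a median of 6 over all windows. A high CpG count was not particular to these windows: those of Dnmt3a, Dnmt3b, Tet1, Tet2 and Tet3 held 15 to 51. The windows of Dnmt3a, Dnmt3b, Tet1, Tet2 and Tet3 held none of the E2F words. The word CCAAT, also searched, stood in both matched windows and in 33.85% of all windows. It stood as well in the other Uhrf1 window, in a further Dnmt1 window and in the Tet3 window. These matches are a description of the letters and say nothing of binding.

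Replication genes moved in the same direction as the maintenance pair. Of 26 genes of DNA replication and S phase, 17 were lower and 0 higher in P80R B-ALL than in Pax5 WT, with a median log2 difference of -0.71 against -0.03 over all genes tested. Of 20 genes of G2 and mitosis all 20 were lower, with a median of -1.52. Rrm2, a subunit of ribonucleotide reductase, averaged 14424 ± 3539 scaled counts in P80R B-ALL, against 36841 ± 1314 in Pax5 WT, Mcm5 of the replicative helicase averaged 14375 ± 3961 in P80R B-ALL and 22743 ± 513 in Pax5 WT (adjusted p = 0.0156), and Mki67, the proliferation marker, averaged 3942 ± 2021 in P80R B-ALL and 18217 ± 2400 in Pax5 WT (SD, n = 4 each). Against Pax5 KO the replication list was mixed, with 5 genes higher, 9 lower and a median of -0.38, where all genes tested had -0.12. The mitotic list was not mixed there, with 14 of 20 genes lower, 0 higher and a median of -0.69, and 8 lower with edgeR, 9 with TMM scaling, 12 without recipients 1300 and 1308 and 16 with CPM scaling. Tyms, which makes thymidylate, was higher in P80R B-ALL than in Pax5 KO (log2 difference 1.32, adjusted p = 0.000795), as was Ccne2, a cyclin of the G1 to S transition (1.30, adjusted p = 0.00618). The replication counts against Pax5 KO were 2 higher and 12 lower with CPM scaling, 6 higher and 3 lower with edgeR, and 7 higher and 4 lower without recipients 1300 and 1308. Those against Pax5 WT were 1 higher and 16 lower without these recipients. Pax5 KO against Pax5 WT had 20 of the 26 replication genes and all 20 mitotic genes lower, with medians of -0.42 and -0.85.

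Both maintenance genes were also low relative to the replication genes in the same library. The log2 value of Dnmt1 less the mean log2 value of the 26 replication genes was 0.36, 0.12, 0.96 and 0.48 in recipients 1300, 1301, 1302 and 1308, against 1.40 to 1.61 in Pax5 KO and 1.54, 1.40, 1.46 and 0.93 in Pax5 WT libraries 1 to 4. Recipient 1302 thus lay just above Pax5 WT library 4, and the other 3 recipients lay below all fetal liver libraries. The same measure for Uhrf1 was 1.46, 1.803, 1.85 and 1.46 in recipients 1300, 1301, 1302 and 1308, 2.36 to 2.42 in Pax5 KO and 1.91 to 2.24 in Pax5 WT, with no overlap between the leukaemia and fetal liver libraries. Within P80R B-ALL the log2 value of Uhrf1 less that of Dnmt1 was 1.68 in recipient 1301 and 0.89 to 1.10 in the other 3. Recipient 1301 had the highest Uhrf1 value of the 4 and the second highest Dnmt1 value. Dnmt1 has 7377 bases of exon and Uhrf1 4259, and recipient 1301 had the lowest long-gene reading. Recipient 1302 had the highest such reading of the 4 recipients, and Pax5 WT library 4 the lowest of its group. The measures in this paragraph were not corrected for the length trend, and the part of length in them was not tested.

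**Figure D3:**
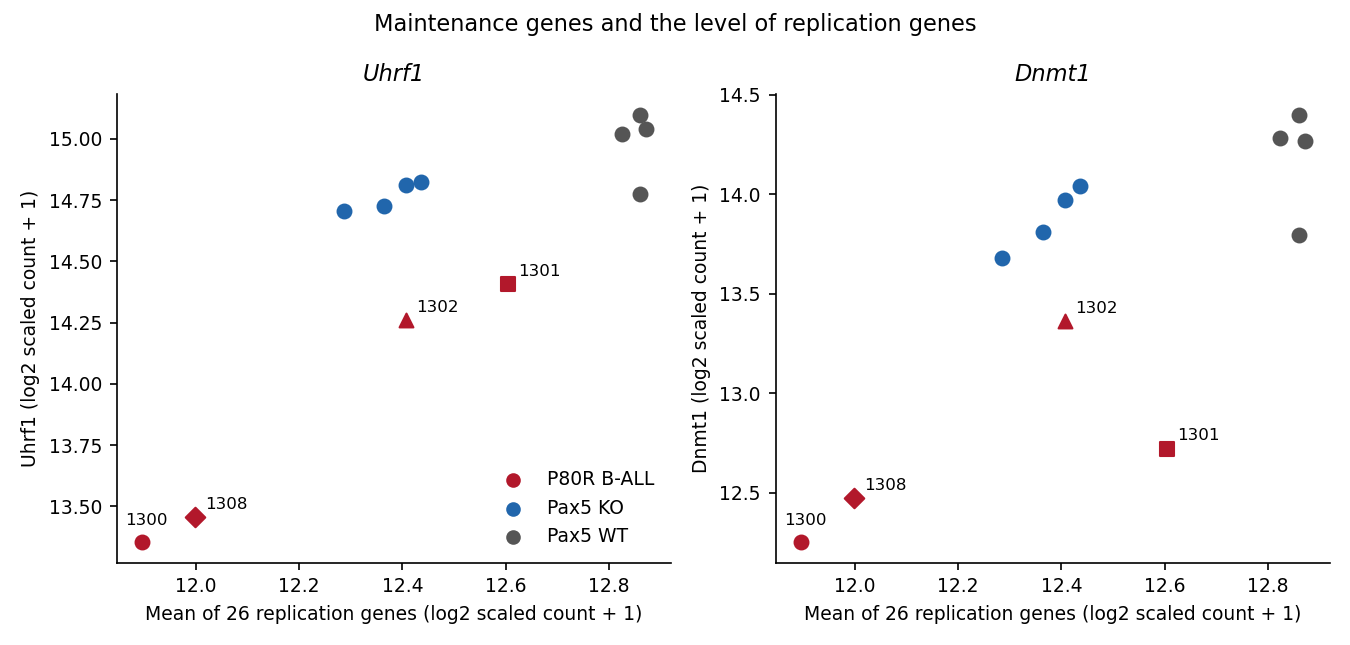
Log2(scaled count + 1) of Uhrf1 and of Dnmt1 (vertical axes) against the mean log2(scaled count + 1) of 26 replication genes (horizontal axes) in each of the 12 libraries, coloured by group and with the leukaemia libraries marked by recipient. Recipient 1302, with a replication mean of 12.41, lies among the Pax5 KO libraries (12.29 to 12.44) on the horizontal axis and below them in both genes.

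The de novo methyltransferases behaved differently from the pair and from each other. Dnmt3b had 653, 1803, 1171 and 268 scaled counts in recipients 1300, 1301, 1302 and 1308, against 9991, 10709, 10652.5 and 9653 in Pax5 KO libraries 1 to 4 and 1130.3, 1033, 1049 and 1042 in Pax5 WT libraries 1 to 4. Pax5 KO stood apart from every other library, and the leukaemia libraries lay on both sides of Pax5 WT. The gene was 13.1-fold lower in P80R B-ALL than in Pax5 KO (-3.71 on the log2 scale, SE 0.50, adjusted p = 0.00103) and 9.63-fold higher in Pax5 KO relative to Pax5 WT (3.27 on the log2 scale, SE 0.06, adjusted p = 4.65e-13). Between P80R B-ALL and Pax5 WT the difference of -0.45 ± 0.49 (SE) did not pass (adjusted p = 0.50), with a 95% interval of -1.56 to 0.67. Recipients 1301 and 1302 were above every Pax5 WT library, recipients 1300 and 1308 below them all. Without 1300 and 1308, which hold the most erythroid and myeloid marker reads, the difference from Pax5 WT was 0.45 (adjusted p = 0.0853) and that from Pax5 KO -2.82 (adjusted p = 6.38e-05).

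Dnmt3a, the other de novo enzyme, was level between the fetal liver groups and spread in leukaemia. It had 1653, 538, 3544 and 1299 scaled counts in recipients 1300, 1301, 1302 and 1308, against 2180.5, 2336, 2036 and 1955 in Pax5 KO libraries 1 to 4 and 2447, 2151, 2133 and 1822 in Pax5 WT libraries 1 to 4. Recipient 1302 was above all fetal liver libraries and the other 3 were below them. The highest recipient had 6.59 times the lowest, where the ratio was 1.20 in Pax5 KO and 1.34 in Pax5 WT. No comparison passed: the log2 difference was -0.58 ± 0.47 (SE) from Pax5 WT (adjusted p = 0.351, 95% interval -1.64 to 0.48), -0.58 ± 0.47 (SE) from Pax5 KO (adjusted p = 0.357), and -0.00 ± 0.09 (SE) for Pax5 KO minus Pax5 WT (adjusted p = 0.977, 95% interval -0.20 to 0.20). Without recipient 1302 the leukaemia difference was -1.02 from each and passed narrowly, with adjusted p = 0.0446 from Pax5 WT and 0.0499 from Pax5 KO. The order of the recipients in Dnmt3a, from lowest to highest 1301, 1308, 1300 and 1302, was that of their long-gene reading. The gene has 16642 bases of exon. With the length trend removed the difference from Pax5 WT was -0.36 (adjusted p = 0.465), and Pax5 KO minus Pax5 WT was -0.20 (adjusted p = 0.0128).

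The make-up of the methyltransferases therefore differed between the groups. Levels of different genes were compared per 1000 bases of exon. Dnmt3b made up 14.4%, 27.1%, 12.3% and 5.83% of the summed Dnmt1, Dnmt3a and Dnmt3b level in recipients 1300, 1301, 1302 and 1308, against 46.3% to 50.6% in Pax5 KO and 6.71% to 9.11% in Pax5 WT. No leukaemia library reached the share of a Pax5 KO library, and 3 of the 4 exceeded every Pax5 WT library. Dnmt1 made up 70.4% to 85.5% in P80R B-ALL, 46.1% to 50.6% in Pax5 KO and 86.0% to 89.0% in Pax5 WT. Of the de novo pair alone, Dnmt3b was 56.3%, 91.6%, 51.9% and 40.2% in recipients 1300, 1301, 1302 and 1308, 93.7% to 94.5% in Pax5 KO and 60.1% to 65.1% in Pax5 WT. Recipient 1301 came close to Pax5 KO in that share and the other 3 recipients lay below Pax5 WT. Dnmt3b itself was at 1803 scaled counts in recipient 1301, against 9653 to 10709 in Pax5 KO. Dnmt3a was lowest in that recipient, at 538, as was the long-gene reading, at -0.72. Dnmt3a has 16642 bases of exon and Dnmt3b 5106, and the part of length in this share was not tested. With the longest transcript as the length the share in Pax5 WT was 50.9% to 56.2% and that in Pax5 KO 91.1% to 92.1%, so the shares depend on the length used while their order between these groups did not.

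**Figure D4:**
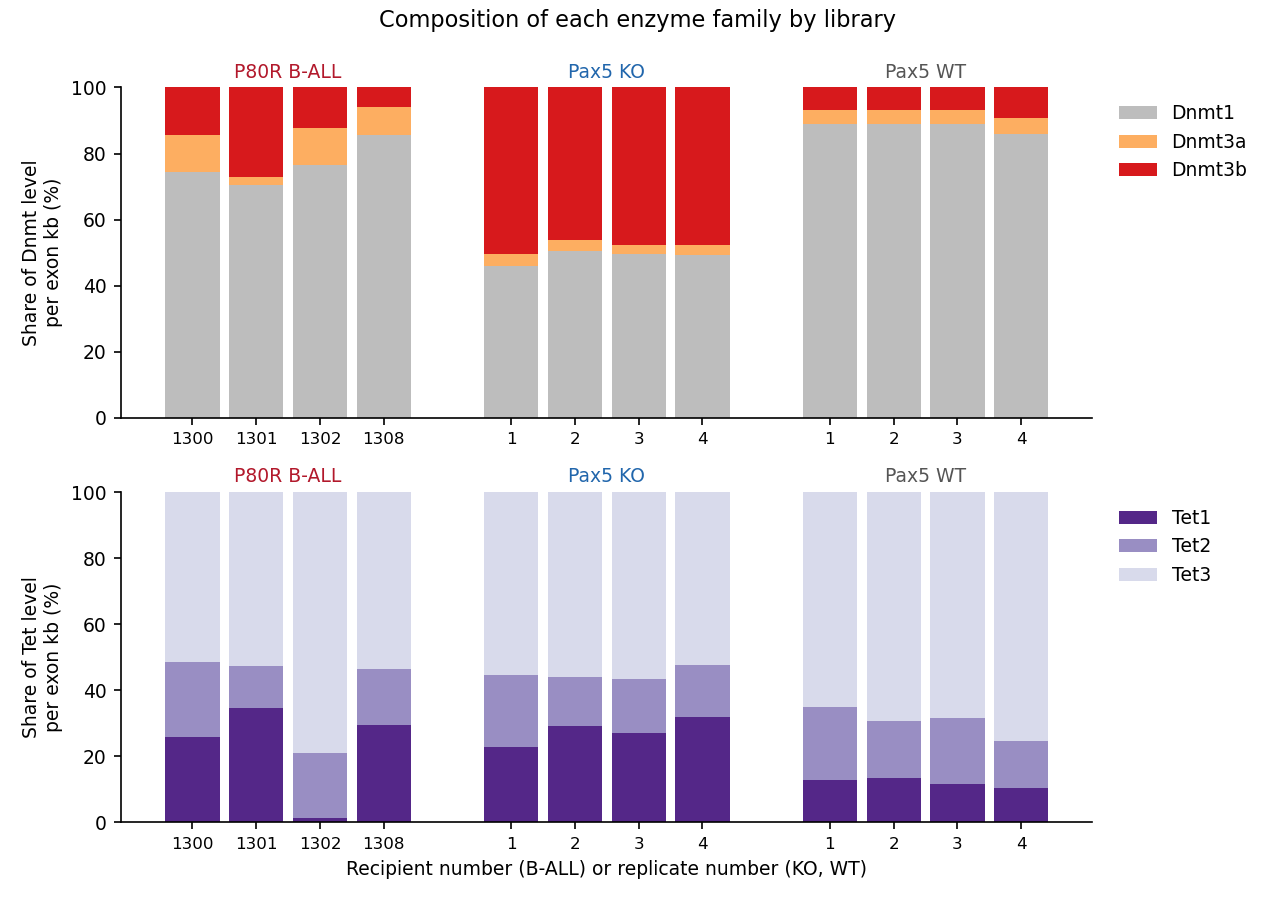
Share (%) of each gene in the summed level per exon kb of Dnmt1, Dnmt3a and Dnmt3b (top) and of Tet1, Tet2 and Tet3 (bottom), 1 bar per library in the order P80R B-ALL, Pax5 KO, Pax5 WT. Dnmt3b fills 46.3% to 50.6% of each Pax5 KO bar, and Tet3 is the largest part of every Tet bar.

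The Tet genes, which encode the oxidising enzymes, were higher in Pax5 KO relative to Pax5 WT and unevenly placed among the leukaemia libraries. Tet1, whose product binds CpG-rich DNA, had 568, 297, 14.9 and 554 scaled counts in recipients 1300, 1301, 1302 and 1308, against 681, 667, 711 and 759 in Pax5 KO libraries 1 to 4 and 196, 178, 133 and 104 in Pax5 WT libraries 1 to 4. Recipient 1302 had 12 reads of Tet1, a scaled count with a 95% Poisson interval of 7.69 to 26 that covers counting error only, and lay below every other library. The other 3 recipients lay between the fetal liver groups. In Pax5 KO Tet1 was 4.72-fold higher than in Pax5 WT (2.24 on the log2 scale, SE 0.18, adjusted p = 2.14e-07). Between P80R B-ALL and Pax5 WT the difference was 0.40 ± 1.03 (SE, adjusted p = 0.786, 95% interval -1.94 to 2.73), and without recipient 1302 it was 1.61 and passed (adjusted p = 0.00646). It was 1.24 with edgeR (adjusted p = 0.247) and 1.29 with DESeq2 (adjusted p = 0.164). The leukaemia libraries were all below Pax5 KO in Tet1, with a difference of -1.84 ± 1.03 (SE) that did not pass (adjusted p = 0.185), and of -0.90 with edgeR and -0.88 with DESeq2 (adjusted p = 0.389 and 0.327). Without recipients 1300 and 1308 it was -3.36 (adjusted p = 0.0282), a value that rests on recipient 1302.

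Tet2, the family member without the CpG-binding domain of Tet1 and Tet3, was the least abundant by scaled count in Pax5 KO. It had 552, 117, 273 and 352 scaled counts in recipients 1300, 1301, 1302 and 1308, against 707, 367, 462 and 401 in Pax5 KO libraries 1 to 4 and 363, 246, 247 and 157 in Pax5 WT libraries 1 to 4. Recipient 1301 was the lowest of all libraries, and the leukaemia group overlapped both others. Pax5 KO was 1.92-fold higher than Pax5 WT (0.94 on the log2 scale, SE 0.25, adjusted p = 0.00471), with every Pax5 KO library above every Pax5 WT library. P80R B-ALL differed from Pax5 WT by 0.21 ± 0.46 (SE, adjusted p = 0.747, 95% interval -0.83 to 1.24) and from Pax5 KO by -0.74 ± 0.45 (SE, adjusted p = 0.217). Without recipients 1300 and 1308 the difference from Pax5 KO was -1.38 (adjusted p = 0.0246). With the length trend removed it was -0.27 (adjusted p = 0.627), and that from Pax5 WT was 0.43 (adjusted p = 0.406). Tet2 has 16870 bases of exon, and recipient 1301 had the lowest long-gene reading (-0.72).

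Tet3 was the most abundant Tet gene in every library. It had 1223, 487, 1068 and 1088 scaled counts in recipients 1300, 1301, 1302 and 1308, against 1778, 1383, 1601 and 1346 in Pax5 KO libraries 1 to 4 and 1069, 982, 845 and 818 in Pax5 WT libraries 1 to 4. Recipient 1301 was again lowest, the other 3 recipients were near or above the highest Pax5 WT library, and all 4 were below Pax5 KO. Pax5 KO was 1.64-fold higher than Pax5 WT (0.72 on the log2 scale, SE 0.11, adjusted p = 0.000104). P80R B-ALL differed from Pax5 WT by -0.02 ± 0.28 (SE, adjusted p = 0.968, 95% interval -0.65 to 0.61). Its difference from Pax5 KO, -0.73 ± 0.28 (SE), missed the threshold (adjusted p = 0.0657) and passed without recipient 1300 (adjusted p = 0.0463) or without recipient 1301 (adjusted p = 0.0456). With the length trend removed it was -0.26 (adjusted p = 0.349). Pax5 KO against Pax5 WT kept Tet1, Tet2 and Tet3 as higher with that trend removed, at 2.04 (adjusted p = 5.02e-08), 0.74 (adjusted p = 0.00579) and 0.52 (adjusted p = 0.000268). With all 12 libraries in 1 fit, which shares 1 estimate of spread with the more variable leukaemia libraries, Tet1 and Tet2 no longer passed (adjusted p = 0.0689 and 0.0971) and Tet3 did (adjusted p = 0.0387). Every Pax5 KO library was above every Pax5 WT library in 4 of the 7 genes, Dnmt3b, Tet1, Tet2 and Tet3, where this held for 32.9% of all genes tested, and none of the 7 lay below in every library, where 27.9% did.

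The share of Tet1 among the Tet genes did not overlap between the fetal liver groups. Per 1000 bases of exon, Tet1 made up 25.7%, 34.7%, 1.19% and 29.4% of the summed Tet level in recipients 1300, 1301, 1302 and 1308, against 22.9% to 32% in Pax5 KO and 10.3% to 13.6% in Pax5 WT. Recipients 1300 and 1308 lay within the range of Pax5 KO, 1301 above it, and 1302 below all other libraries. Tet3 made up 51.3% to 78.9% in P80R B-ALL, with the highest share in recipient 1302, 52.5% to 56.7% in Pax5 KO and 65.2% to 75.3% in Pax5 WT. Tet2 made up 12.5% to 22.9%, 14.7% to 21.8% and 14.3% to 21.9% in P80R B-ALL, Pax5 KO and Pax5 WT, so its share overlapped between all groups. The summed Tet level per 1000 bases of exon was 143, 55.3, 81.1 and 122 in recipients 1300, 1301, 1302 and 1308, 148 to 192 in Pax5 KO and 65.1 to 98.2 in Pax5 WT.

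The order of the 7 genes by level per 1000 bases of exon was nearly the same in the 3 groups. In P80R B-ALL it was Uhrf1 (3700.3 ± 1347.5), Dnmt1 (945 ± 339), Dnmt3b (191 ± 130), Dnmt3a (106 ± 76.8), Tet3 (57.9 ± 19.6), Tet1 (23.2 ± 16.9) and Tet2 (19.2 ± 10.7; SD, n = 4 for each). Only Uhrf1 and Dnmt1, and Dnmt1 and Dnmt3b, were neighbours whose ranges in P80R B-ALL did not overlap. In Pax5 KO Dnmt3b, at 2008 ± 101, was level with Dnmt1 at 2049.9 ± 227, and their ranges overlapped, while every other pair of neighbours was apart. Dnmt3a there was 128 ± 10.1, Tet3 91.5 ± 12.1, Tet1 45.6 ± 2.63 and Tet2 28.7 ± 9.09. In Pax5 WT Dnmt3b was 208 ± 8.77, Dnmt3a 128 ± 15.3 and Tet3 55.6 ± 7.07, and Tet2 (15.0 ± 4.99) stood above Tet1 (9.89 ± 2.699) with overlapping ranges. With the longest transcript as the length Tet2 also stood above Tet1 in P80R B-ALL and Pax5 KO, and the other 5 genes kept their ranks.

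Against Pax5 WT, partners of the methyltransferases were called lower more often than higher in leukaemia. Of 12 listed cofactors 10 were tested, and in P80R B-ALL against Pax5 WT 5 were lower, 1 higher and 4 not called, where 19.8% of all genes were lower and 20.8% higher. Their median log2 difference was -0.56. Lig1, the ligase of replicating DNA to which Uhrf1 binds, averaged 5800 ± 965 scaled counts in P80R B-ALL, against 15697 ± 206 in Pax5 WT (log2 difference -1.45, adjusted p = 0.000106). Usp7, a deubiquitinase that binds Dnmt1 and Uhrf1, had 2881, 3474, 5484 and 3468 scaled counts in recipients 1300, 1301, 1302 and 1308, against 6903 to 9658 in Pax5 WT, with no overlap (-1.22, adjusted p = 0.00163). Trim28, a corepressor (-0.78, adjusted p = 0.00234), and Ehmt2, a histone methyltransferase (-0.80, adjusted p = 0.00706), were also lower. The gene that was higher was Cdca7, a partner of the remodeller Hells (0.57, adjusted p = 0.0414), named after its value was seen, and recipient 1308 lay within the range of Pax5 WT. No cofactor was called higher than in Pax5 WT with CPM scaling, TMM scaling or the length trend removed. Without recipients 1300 and 1308 the counts against Pax5 WT were 4 lower and 2 higher. Against Pax5 KO 2 cofactors were lower, Trim28 (-0.82, adjusted p = 0.00196) and Usp7 (-1.05, adjusted p = 0.00387), and Pcna, the replication clamp, was higher (0.61, adjusted p = 0.0340). Of all genes 21.2% were lower and 17.9% higher there. The cofactor counts against Pax5 KO were 2 lower and 3 higher without recipients 1300 and 1308, and 4 lower and 0 higher with CPM scaling. In Pax5 KO against Pax5 WT 6 were lower and 1 higher, where 30.3% of all genes were lower and 36.1% higher. The calls were led by Lig1 (-1.09, adjusted p = 1.08e-09), Pcna (-0.99, adjusted p = 2.14e-08) and Pclaf, a clamp-binding protein (-1.09, adjusted p = 3.30e-08).

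Genes that supply or steer the Tet enzymes were higher in Pax5 KO. Of 14 listed genes 11 were tested, and 7 were higher and 2 lower in Pax5 KO than in Pax5 WT, where 36.1% of all genes were higher and 30.3% lower. Their median log2 difference was 0.39, against 0.05 over all genes tested. Slc23a2, a transporter of the Tet cofactor ascorbate, had 1094, 639, 1373 and 787 scaled counts in recipients 1300, 1301, 1302 and 1308, 2645 to 2947 in Pax5 KO and 507 to 692 in Pax5 WT. Its difference between Pax5 KO and Pax5 WT was 2.20 (adjusted p = 1.13e-09). Idh2, a mitochondrial source of alpha-ketoglutarate, was also higher in Pax5 KO relative to Pax5 WT (0.60, adjusted p = 6.48e-07), while the stress genes Gadd45b (-2.62, adjusted p = 3.93e-09) and Gadd45a (-0.95, adjusted p = 8.58e-06) were lower. In P80R B-ALL 4 of the 11 were lower and 1 higher than in Pax5 KO, where 21.2% of all genes were lower and 17.9% higher. Among them were Slc23a2 (-1.58, adjusted p = 0.00131), Idh2 (-1.02, adjusted p = 0.00193) and Idh1, the cytosolic isocitrate dehydrogenase (-0.96, adjusted p = 0.0179). Against Pax5 WT 1 of the 11 was higher, Gadd45g (2.43, adjusted p = 0.000713), and 1 lower, Idh1 (-0.99, adjusted p = 0.0127). Of all genes 20.8% were higher and 19.8% lower there. Gadd45g, a stress gene linked to demethylation, was low in all groups, at 136 to 242 scaled counts in P80R B-ALL, 54.9 to 124 in Pax5 KO and 24.9 to 35.6 in Pax5 WT.

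Base excision repair genes, which complete removal of oxidised bases, were in part lower in leukaemia than in Pax5 WT. Of 11 tested, 6 were lower and 1 higher, where 19.8% of all genes were lower and 20.8% higher. The calls were led by the scaffold Xrcc1 (-1.61, adjusted p = 8.26e-05), the glycosylases Neil1 (-1.20, adjusted p = 0.000418) and Neil3 (-1.13, adjusted p = 0.000443), and Mbd4, which removes thymine opposite guanine (-1.46, adjusted p = 0.000506). Smug1, another glycosylase, was the higher one (1.23, adjusted p = 0.00602) and was named after its value was seen. The counts were 5 lower and 1 higher with TMM scaling or edgeR, 5 lower and 2 higher with DESeq2 or the length trend removed, and 4 lower and 2 higher without recipients 1300 and 1308. Parp1, which marks DNA breaks, had 12525, 29933, 31178 and 10562 scaled counts in recipients 1300, 1301, 1302 and 1308, against 59781 to 67676 in Pax5 KO and 22302 to 25236 in Pax5 WT. It was lower in P80R B-ALL than in Pax5 KO (-1.75, adjusted p = 0.00533) and higher in Pax5 KO relative to Pax5 WT (1.38, adjusted p = 6.00e-10), and the leukaemia libraries lay on both sides of Pax5 WT, as for Dnmt3b, with recipients 1300 and 1308 low.

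Readers of methylated DNA split by gene. Mbd2, which binds methylated CpG, had 4199, 3961, 4877 and 5398 scaled counts in recipients 1300, 1301, 1302 and 1308, against 3807.5 to 4034 in Pax5 KO and 13932 to 16001 in Pax5 WT. It was low in P80R B-ALL (-1.68, adjusted p = 3.87e-05) and in Pax5 KO (-1.90, adjusted p = 3.43e-11) relative to Pax5 WT, and P80R B-ALL and Pax5 KO differed by 0.22 (adjusted p = 0.197, 95% interval -0.07 to 0.51). Zbtb4, a zinc-finger reader, had 187, 59.1, 110 and 159 scaled counts in recipients 1300, 1301, 1302 and 1308, against 4.29 to 13.7 in Pax5 KO and 22.7 to 34.4 in Pax5 WT, with no overlap between P80R B-ALL and either group. The related Zbtb38 was higher in P80R B-ALL (1.74, adjusted p = 0.000800) and in Pax5 KO (1.41, adjusted p = 5.74e-07) than in Pax5 WT. In all, 3 of the 7 readers were lower and 2 higher in P80R B-ALL than in Pax5 WT, and 4 lower and 1 higher in Pax5 KO relative to Pax5 WT. Of all genes, 19.8% were lower and 20.8% higher in P80R B-ALL than in Pax5 WT. For Pax5 KO against Pax5 WT the shares were 30.3% lower and 36.1% higher.

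The methyl donor cycle, which supplies S-adenosylmethionine, had genes called in both directions. Of 11 genes tested 4 were lower and 2 higher in P80R B-ALL than in Pax5 WT. Of all genes 19.8% were lower and 20.8% higher there. Without recipients 1300 and 1308 the counts were 4 lower and 4 higher. Shmt2, which feeds mitochondrial folate (-1.24, adjusted p = 0.00346), and Ahcy, which clears S-adenosylhomocysteine (-0.92, adjusted p = 0.0176), were lower, and Mat2a, which makes the methyl donor, was higher (0.44, adjusted p = 0.0294). Against Pax5 KO 4 were lower and 1 higher, among them the methionine synthase Mtr (-0.94, adjusted p = 0.0124). Of all genes 21.2% were lower and 17.9% higher there. In Pax5 KO against Pax5 WT 4 were higher, led by Amd1, which decarboxylates S-adenosylmethionine (0.99, adjusted p = 1.46e-07), and 3 lower. These counts are near the shares of all genes, 36.1% higher and 30.3% lower. Of 16 germline genes known to be silenced by DNA methylation, 1 passed the filter on low values, Brdt, and it passed no comparison (adjusted p = 0.569 for P80R B-ALL against Pax5 WT).

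**Figure D5:**
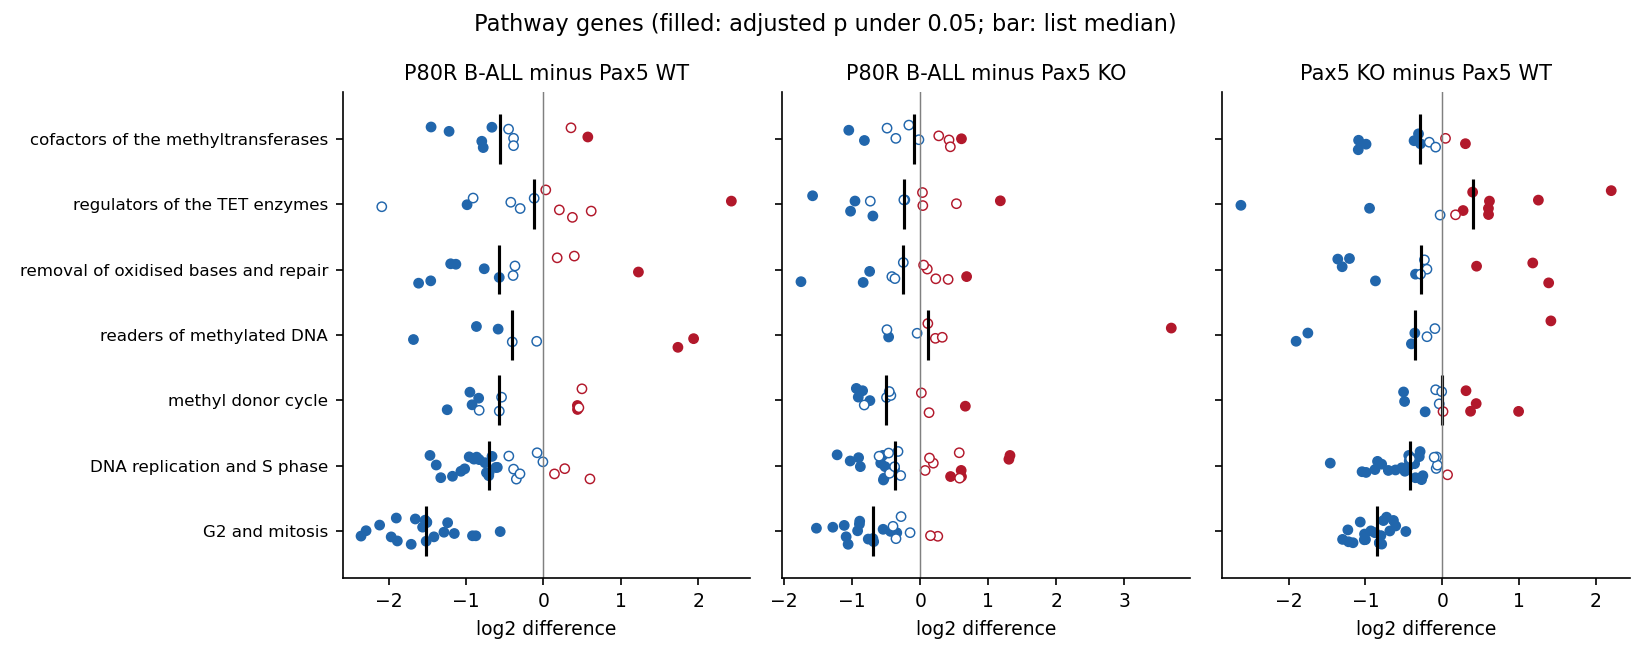
Log2 difference of each tested gene of 7 lists in the 3 comparisons, filled where the adjusted p of limma was under 0.05, red above 0 and blue below, with the list median as a bar. All 20 mitotic genes lie below 0 in P80R B-ALL minus Pax5 WT and in Pax5 KO minus Pax5 WT, and the regulators of the Tet enzymes have 7 filled points above 0 in Pax5 KO minus Pax5 WT.

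The genes most alike to each member were those with the smallest root mean square difference between log2 profiles over the 12 libraries, among 10009 protein-coding genes. Dnmt1 was closest to Ckap5, a microtubule polymerase of the spindle (0.0652), and to Iars, an isoleucyl-tRNA synthetase (0.114). Uhrf1 was closest to Mcm10, a replication factor that is also in the replication list (0.0750), and to Sass6, a centriole protein (0.120). Dnmt3b had no close match: its nearest genes were Nol4l at 0.660 and Med13l, a Mediator subunit, at 0.674, and Med13l averaged 1828 scaled counts in P80R B-ALL, 8929 in Pax5 KO and 1772 in Pax5 WT. Tet3 was closest to the kinase Taok1 (0.176), which was also second for Tet2 (0.3001) after the remodeller Chd2 (0.272). Tet1 was closest to Zdhhc15, a palmitoyltransferase (0.399), and Dnmt3a to the phosphatase Ptpn9 (0.259). These distances are descriptions, and the libraries of a group share genotype and stage.

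Reads of near copies were few. Dnmt3c, a rodent copy of Dnmt3b, was at 0 to 13.8 scaled counts in P80R B-ALL, 2.28 to 7.71 in Pax5 KO and 0.860 to 4.00 in Pax5 WT, and Dnmt3l, the inactive partner of the de novo enzymes, was at 0 to 2.63 in P80R B-ALL and 0 in every other library. The table gives 1 value per gene, so the catalytically inactive splice forms known for Dnmt3b and the short and long forms of Dnmt3a and Tet1 were not separated. DNA methylation itself was not measured here.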

How the data were processed

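RNA was isolated from lysates of sorted cells and made into full-length SMART-Seq v4 libraries, per the labels' protocols. The submitters' processing notes name fastp, STAR 2.7.8a, featureCounts and the build mm39; no strand setting is stated. The deposited signal values are read counts that the authors had divided by 1 factor per library: 100.0% were whole multiples of 1 read within a tolerance of 0.001. Symbols (21780 of 21885) and exon lengths came from GENCODE M21.

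For each pair of groups, genes reaching a value of 10 in 4 or more of the 8 libraries were tested with limma 3.58.1 in R 4.3.3 (trend, robust, two-sided) on log2(value + 1), fitted to those 8 libraries alone because the spread differed between groups, with Benjamini-Hochberg adjustment over all genes. A fold change on this scale understates low genes. Alternatives were other pseudocounts, filters, scalings and weights, edgeR 4.0.16 and DESeq2 1.42.0 on recovered reads, a replicate block, and each library left out. The script was tested on simulated data.

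The 7 genes and all lists were chosen with earlier results of these data known. The text names the 7 genes, up to 4 called genes per list and comparison with the smallest adjusted p, Pcna, Mcm5, Rrm2 and Mki67, and the nearest profiles among genes with a mean of at least 100. Protein sequences were not used here.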

Additional observations from a re-analysis of the deposited data

Results flagged for a closer look

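Dnmt3b in Pax5 WT library 1 was at 1130.3 scaled counts, where the other 3 libraries of the group were at 1033 to 1049. The gap made up 0.840 of the group's range, above Dixon's critical value at 95% for 4 samples. Of 21 groups of 4 tested this was the 1 that stood out, and chance gives about 1 in 20. The distance is small beside the 9.63-fold difference between Pax5 KO and Pax5 WT.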

How the results depend on the processing

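Of the recomputed differences of the 7 genes, 380 kept their direction and side of the threshold, 11 passed it newly, 11 lost it and 18 changed sign. Dnmt1 and Uhrf1 against both fetal liver groups, Dnmt3b against Pax5 KO and in Pax5 KO against Pax5 WT, and Tet3 in the last comparison kept their calls in all 20 alternatives each. Uhrf1 against Pax5 KO kept its call narrowly, with an adjusted p of 0.04997 in limma without Pax5 KO library 2 and 0.0425 with edgeR. Leaving out 1 library gave 2 to 4 of the 7 genes called in P80R B-ALL against Pax5 WT (4 without recipient 1302) and 3 to 4 against Pax5 KO. Without recipients 1300 and 1308, 6 were called against Pax5 KO. With all 12 libraries in 1 fit, Pax5 KO against Pax5 WT had 4084 genes called, against 7684, and 2 of the 7, Dnmt3b and Tet3; Tet1, Tet2, Dnmt1 and Uhrf1 were lost (adjusted p = 0.0689, 0.0971, 0.281 and 0.448). The sign changes were in differences that did not pass. For P80R B-ALL against Pax5 WT, leaving out 1 library gave Dnmt3b -0.85 to 0.067, Tet1 -0.12 to 1.61, Tet2 -0.12 to 0.63 and Tet3 -0.16 to 0.28. Without recipients 1300 and 1308 they were 0.45 for Dnmt3b, -1.12 for Tet1 and -0.44 for Tet2, and Tet3 was 0.063 with edgeR, 0.10 with DESeq2 and 0.20 with the length trend removed. Dnmt3a in Pax5 KO against Pax5 WT was 0.087 with CPM scaling and -0.077 to 0.064 with 1 library left out. The causes were not tested. In P80R B-ALL against Pax5 KO the median of all genes moved by -0.14 with CPM scaling, 0.12 with edgeR, 0.13 with DESeq2 and 0.15 with the length trend removed. Deviations from the group mean in Pax5 KO and Pax5 WT libraries of the same number correlated at -0.00547 to 0.0922. Those of libraries with different numbers correlated at -0.0941 to 0.0516. This check cannot tell whether samples of the same number shared an origin. The replicate block called 7776 genes and 6 of the 7. Tet1 in recipient 1302 rests on 12 reads, at a depth of 26138458 reads. Recipients 1300, 1301 and 1308 had 432, 241 and 400 reads of Tet1, and recipient 1300 had a lower depth of 24914250.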
